A study of Homo sapiens with 12 samples.

Results

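The genes described here are 58 genes of mitosis and of the passage from G2 into mitosis (G2/M), chosen by name from what they are known to do, with earlier results of these data known. They were followed across 4 groups of SH-SY5Y cells, a human neuroblastoma line with features of sympathetic neurons that is widely used as a model of neurons. All 58 were among the 11774 genes whose level allowed a test. The peptide was amyloid-β (Aβ), which forms the plaques of Alzheimer's disease. One group was treated with oligomeric Aβ at an incubation of 6 h, and the next was labelled as the 6 h control. The third group was treated with fibrillar Aβ at an incubation of 24 h, and the last was labelled as the 24 h control. Each group had 3 Affymetrix 3′ expression arrays of total RNA, 12 in all, with replicate numbers 1 to 3. The labels do not say what the controls received, what dose of peptide was used, or whether the hours refer to the ageing of the peptide or to the exposure of the cells. Oligomers were used at 6 h and fibrils at 24 h, so form and hours cannot be told apart. Nothing says that the replicates were separate cultures, so every p-value below measures only the spread between these samples, which may be technical.

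Cells express most mitotic genes in a wave that rises through S phase and G2, peaks around mitosis and drops when the cell divides or leaves the cycle. The cyclin B and CDK1 kinase starts mitosis, Aurora and Polo-like kinases build the spindle, the spindle checkpoint waits until every kinetochore holds microtubules, and the anaphase-promoting complex then lets the chromosomes part. Transcription of the wave depends on the factors B-MYB and FOXM1 and on the MuvB complex, which binds the cell cycle genes homology region (CHR, letters TTTGAA) in many of these promoters, often near CCAAT boxes bound by NF-Y. In bulk RNA such as this, fewer cells in G2 and mitosis and less of these transcripts per cell cannot be told apart.

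Signals are on a log2 scale throughout, 1 probe set per gene, and a difference of 1 is a change of 2-fold. The 12-array mean of the members ran from 4.99 for PLK1 to 11.3 for SMC4, all above the level of 3.78 needed for the test. Levels of different genes come from different probes and were not set against each other. Of the 58 probe sets, 26 have a name that Affymetrix gives to probes that may bind more than 1 transcript, and 31 genes had 1 probe set above the level needed. The identity of the cells was read from markers. Of 15 sympathetic neuroblastoma markers, 12 were above that level, with GATA3 at 12.1, while the noradrenaline synthesis gene TH was at 0.73. Of 6 glial markers 1 was above it, as were 2 of 6 for epithelium and 2 of 6 for blood or endothelium. All 6 mesenchymal markers, among them COL3A1 (10.9) and LUM (9.51), were above it too.

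The members were lower on the 24 h arrays than on the 6 h arrays, in the controls and in the amyloid-treated cells alike. In the controls 18 of the 58 fell (31%), against 7.92% of all genes, and 0 rose, against 3.76%. From oligomeric arrays at 6 h to fibrillar arrays at 24 h 15 of the 58 fell (25.9%), against 8.61% of all genes, and 0 rose, against 6.5%. A call means a Benjamini-Hochberg adjusted p under 0.05 over all 11774 genes with limma. With 1 array left out the counts of falls ran from 6 to 20 in the controls and from 7 to 21 between the amyloid arrays. Over all genes the counts called in either direction then ran from 719 to 1106 and from 992 to 1892. The 2 comparisons use separate sets of arrays, and 11 members fell in both: CDC25B, AURKB, PLK1, BUB1, BUB1B, HJURP, KIF20A, NCAPH, CDC20, UBE2C and ESPL1. They are 61.1% of the members called in the controls and 73.3% of those called between the amyloid arrays. Matching shares over all genes are not given here, so the overlap cannot be read as a trait of the members. Although the arrays are separate, both tests use the same variance per gene, fitted over all groups. Neither preparation gave a call in any of the 58 when set against the control of its own hours.

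The members also share a feature that the choice of genes did not use directly. RefSeq promoter windows on GRCh38.p14, from 250 bases before to 50 after each start, were found for 49 of the 58. They were searched on both strands for TTTGAA, for its variant TTCGAA and for CCAAT, and the letters of neighbouring matches may overlap. TTTGAA occurred in 36 of the 49 (73.5%), against 18.2% of the 27305 genes in the table. Of 123 other mitotic genes, listed further on, 105 had a window, and it occurred in 45 of these genes (42.9%). Of S phase genes with a window it occurred in 2 of 38 (5.26%). A gene with several windows counted if any of them held the motif. TTCGAA occurred in 8.16% of the members and in 1.82% of all genes. CCAAT occurred in 75.5% of the members, in 39.7% of all genes, in 61.9% of the other mitotic genes and in 60.5% of the S phase genes. TTTGAA and CCAAT occurred together in 57.1% of the members, in 28.6% of the other mitotic genes and in 8.37% of all genes. Of 51 TTTGAA matches, 37 lay within 60 bases of the start. These were counted over all windows, and 9 members have over 1 window, so a site in overlapping windows can count more than once. The share within 60 bases was not worked out for all genes. Of members with a window, 10 of 19 that fell in either time comparison held TTTGAA (52.6%), and 26 of 30 that fell in neither (86.7%). The motif was thus not more frequent among those that fell. A match is a description of letters and does not show a bound site.

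The 8 genes below fell in both time comparisons and have a single start in the table. The 130 bases before that start are printed from 5′ to 3′ on the gene's strand, and capitals mark TTTGAA and CCAAT, the latter as ATTGG where it lies on the other strand.
CDC20, chr1:43358851-43358980, plus strand: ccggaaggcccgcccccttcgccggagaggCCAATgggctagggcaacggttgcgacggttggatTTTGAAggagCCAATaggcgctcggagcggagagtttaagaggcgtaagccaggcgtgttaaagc
HJURP, chr2:233854536-233854665, minus strand: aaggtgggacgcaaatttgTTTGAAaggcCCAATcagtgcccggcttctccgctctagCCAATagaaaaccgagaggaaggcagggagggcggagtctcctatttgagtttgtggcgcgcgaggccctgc
ESPL1, chr12:53268169-53268298, plus strand: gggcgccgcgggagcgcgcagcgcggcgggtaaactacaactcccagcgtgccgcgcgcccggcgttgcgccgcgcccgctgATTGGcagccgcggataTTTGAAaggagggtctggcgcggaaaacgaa
PLK1, chr16:23678759-23678888, plus strand: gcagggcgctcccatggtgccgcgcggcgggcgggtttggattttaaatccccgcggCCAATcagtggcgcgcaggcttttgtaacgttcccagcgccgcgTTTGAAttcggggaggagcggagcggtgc
BUB1B, chr15:40160939-40161068, plus strand: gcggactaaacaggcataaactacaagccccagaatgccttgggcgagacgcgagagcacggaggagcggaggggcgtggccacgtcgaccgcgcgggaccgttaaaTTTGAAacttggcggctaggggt
BUB1, chr2:110678064-110678193, minus strand: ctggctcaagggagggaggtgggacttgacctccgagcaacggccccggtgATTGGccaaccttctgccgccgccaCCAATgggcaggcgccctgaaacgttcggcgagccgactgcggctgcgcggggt
KIF20A, chr5:138178982-138179111, plus strand: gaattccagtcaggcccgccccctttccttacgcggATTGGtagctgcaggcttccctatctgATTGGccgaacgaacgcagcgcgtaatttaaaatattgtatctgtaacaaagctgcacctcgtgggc
NCAPH, chr2:96335636-96335765, plus strand: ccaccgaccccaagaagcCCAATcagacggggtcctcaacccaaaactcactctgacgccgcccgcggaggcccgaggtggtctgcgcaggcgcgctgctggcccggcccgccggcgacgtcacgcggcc
CDC20, HJURP, ESPL1, PLK1 and BUB1B hold TTTGAA in this stretch, and the stretches of BUB1, KIF20A and NCAPH do not. BUB1B is the only one of the 8 without CCAAT there.

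The comparison of the 24 h with the 6 h controls shows what differed between the samples labelled as controls at 6 h and at 24 h. The members' median change was −0.24, against −0.02 over all genes, and 54 of the 58 had the lower mean at 24 h, against 52.6% of all genes. From oligomeric to fibrillar arrays the median was −0.21, again against −0.02, and 53 of the 58 were lower, against 52.2%. In 49 members the 24 h mean was lower in both. Because bright genes are measured more precisely, genes at or above the members' median level give a closer background for the 29 brighter members alone. In that background 11.8% fell in the controls and 10.9% between the amyloid arrays, beside 6 and 4 of those 29 members. The count between the amyloid arrays is close to the background share. No background of like level was made for the 29 dimmer members. The 29 members below the members' median level nevertheless held more of the falls than the 29 above it, 12 against 6 in the controls and 11 against 4 between the amyloid arrays. The plot of the changes from 6 h to 24 h shows the members by role.

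**Figure D1:**
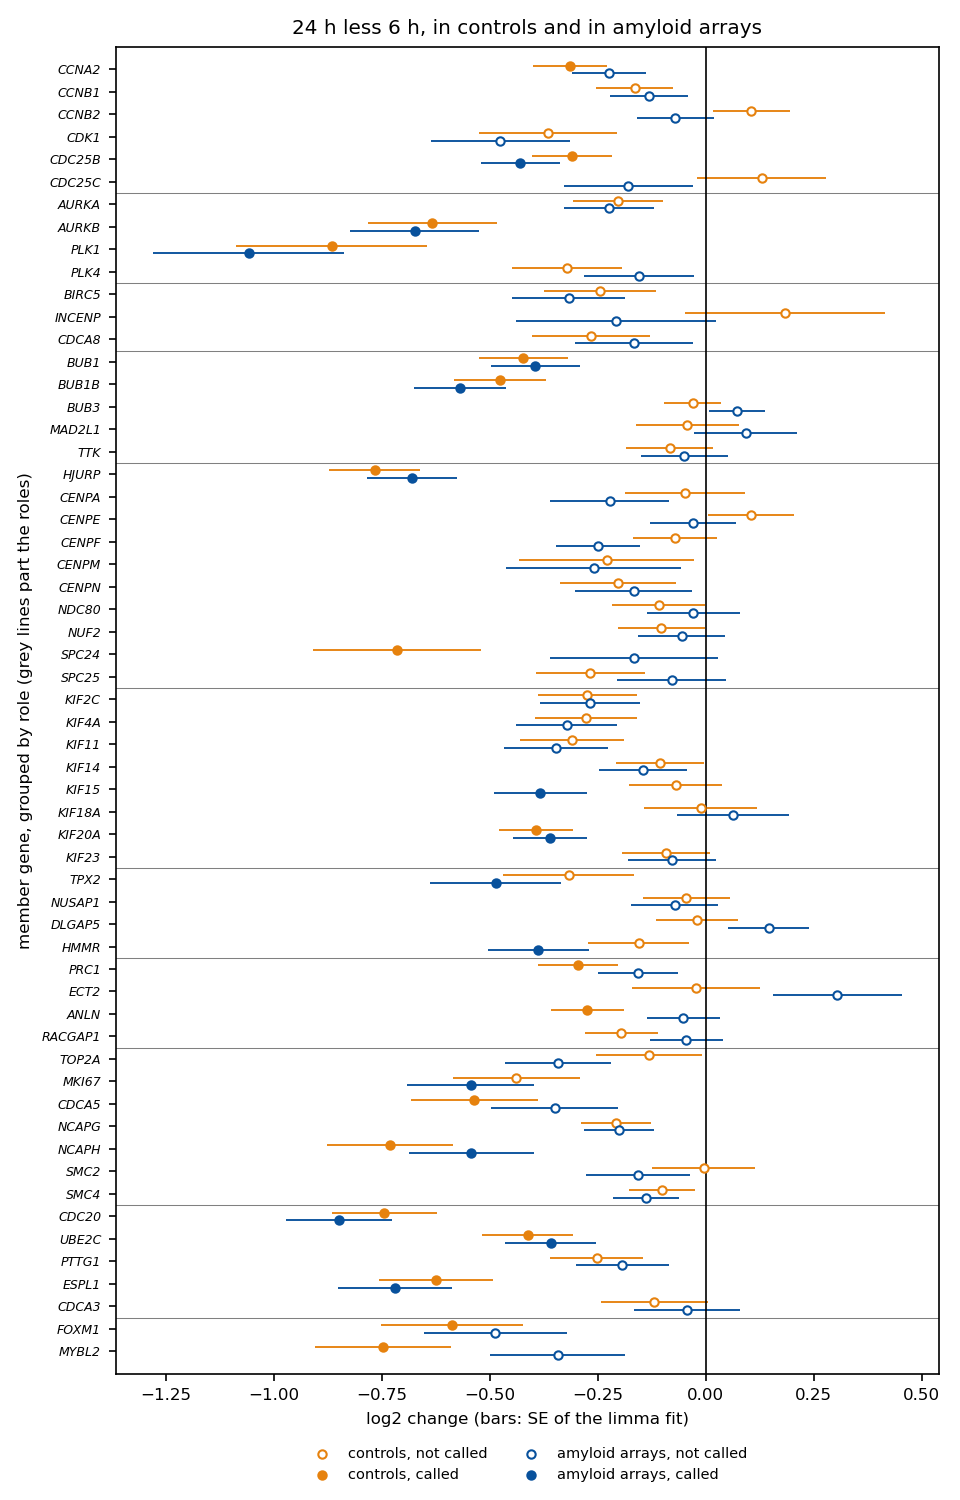
Log2 change from 6 h to 24 h of each of the 58 members in the controls (orange) and from oligomeric to fibrillar arrays (blue), with bars for the standard error of the limma fit and filled points for calls. Nearly all points lie left of 0, with PLK1 farthest at −0.87 and −1.06, and the 22 members called in either comparison are spread over most of the roles.

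Of 5 members that act in the exit from mitosis, 3 fell in each comparison (60%). Of all genes 7.92% fell in the controls and 8.61% between the amyloid arrays. CDC20, which activates the anaphase-promoting complex, had signals of 9.15, 9.29 and 8.87 on the 6 h controls (replicates 1 to 3, the order used throughout) and 8.47, 8.37 and 8.23 on the 24 h controls. It had 8.86, 9.30 and 9.04 with oligomers and 8.33, 8.27 and 8.05 with fibrils. All 6 arrays of 24 h lay below all 6 arrays of 6 h. The fall was 0.74 on the log2 scale in the controls (change −0.74, SE 0.12, adjusted p = 0.0012), which leaves 59.7% of the 6 h signal, and the change between the amyloid arrays was −0.85 (SE 0.12, adjusted p = 0.000441). ESPL1, the separase that cuts cohesin, had 8.70, 8.90 and 8.50 on the 6 h controls, 8.10, 8.23 and 7.91 on the 24 h controls, 8.42, 8.87 and 8.66 with oligomers and 7.91, 8.13 and 7.75 with fibrils. Its 24 h arrays were again all below its 6 h arrays, and it changed by −0.62 (SE 0.13, adjusted p = 0.00611) and −0.72 (SE 0.13, adjusted p = 0.00208). Its other probe set went the same way, with changes of −0.55 and −0.61. UBE2C, the ubiquitin-conjugating enzyme of the same complex, fell in both (−0.41 and −0.36). PTTG1, the securin that holds separase back, and CDCA3, an adaptor for the breakdown of WEE1, had changes of −0.25 and −0.12 in the controls and did not pass.

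Among the mitotic kinases, PLK1, which acts from mitotic entry to cytokinesis, had 5.23, 5.68 and 5.51 on the 6 h controls and 4.49, 4.65 and 4.68 on the 24 h controls. It had 5.47, 5.37 and 5.55 with oligomers and 4.30, 4.33 and 4.59 with fibrils. Time parted these arrays completely, and the changes were −0.87 (SE 0.22, adjusted p = 0.0182) and −1.06 (SE 0.22, adjusted p = 0.00475). PLK1 has the lowest level of the 58. AURKB, the kinase that corrects faulty attachments, had 7.23, 7.42 and 6.99 against 6.50, 6.54 and 6.69 in the controls and 7.07, 7.48 and 6.91 against 6.45, 6.45 and 6.54 in the amyloid arrays. It fell in both (−0.63 and −0.67), with its second probe set at −1.39 and −0.98. AURKA, the spindle pole kinase, did not pass (−0.20, adjusted p = 0.225, and −0.22, adjusted p = 0.16), nor did PLK4, which licenses centriole copying (−0.32 and −0.15). PLK4's other probe set, at a level of 8.18, had 0.13 and 0.23. None of the 3 partners of AURKB in the chromosomal passenger complex was called, with changes in the controls of −0.24 for BIRC5, −0.27 for CDCA8 and 0.18 for INCENP.

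The spindle checkpoint was divided. BUB1B, a part of the inhibitor of the anaphase-promoting complex, had 9.81, 10.11 and 9.95 on the 6 h controls, 9.49, 9.60 and 9.35 on the 24 h controls, 9.69, 10.09 and 9.86 with oligomers and 9.27, 9.46 and 9.21 with fibrils. Every 24 h array was lower than every 6 h array, and it changed by −0.48 (SE 0.11, adjusted p = 0.0084) and −0.57 (SE 0.11, adjusted p = 0.00241). BUB1, the kinase that recruits checkpoint proteins to kinetochores, fell by its brightest probe set (−0.42 and −0.39). Its dimmer probe set, at a level of 5.11, went the other way (0.22 and 0.39), and the mean of the 2 gave −0.10 (adjusted p = 0.716) and −0.0022 (adjusted p = 0.994). MAD2L1, BUB3 and TTK, which complete the checkpoint, had changes between −0.08 and −0.03 in the controls and between −0.05 and 0.09 between the amyloid arrays, without a call.

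Of 10 members at centromeres and kinetochores 2 fell in the controls (20%, against 7.92% of all genes). Between the amyloid arrays 1 fell (10%, against 8.61% of all genes), which is close to the share of all genes. HJURP, the chaperone that loads the centromeric histone CENPA, had 8.54, 8.64 and 8.61 on the 6 h controls and 7.87, 7.96 and 7.66 on the 24 h controls. It had 8.41, 8.69 and 8.69 with oligomers and 7.94, 8.03 and 7.78 with fibrils. The 2 times did not overlap, and HJURP had the lowest adjusted p of the members in the controls (−0.77, SE 0.10, adjusted p = 0.000299) and the next lowest between the amyloid arrays (−0.68, SE 0.10, adjusted p = 0.000729). SPC24, of the NDC80 complex that grips microtubules, fell in the controls (−0.71, SE 0.20, adjusted p = 0.0257), where its last replicate at 24 h was at 5.61 beside 6.35 and 6.54. Between the amyloid arrays SPC24 changed by −0.17. Its partners NDC80, NUF2 and SPC25 had changes from −0.27 to −0.10 in the controls and did not pass, nor did CENPA, CENPE, CENPF, CENPM and CENPN (−0.23 to 0.10).

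Of 8 kinesins, the motors that move along microtubules, 1 fell in the controls (12.5%, against 7.92% of all genes). Between the amyloid arrays 2 fell (25%, against 8.61%), and KIF20A fell in both comparisons. KIF20A, needed for cytokinesis, had 9.37, 9.36 and 9.13 against 8.99, 8.78 and 8.91 in the controls and 9.10, 9.31 and 9.18 against 8.88, 8.84 and 8.79 in the amyloid arrays. The times did not overlap, with changes of −0.39 (SE 0.09, adjusted p = 0.00762) and −0.36 (SE 0.09, adjusted p = 0.0106). KIF15, a motor of the spindle, fell between the amyloid arrays (−0.38) and had a change of −0.07 in the controls. KIF2C, KIF4A, KIF11, KIF14, KIF18A and KIF23 were lower in the controls without a call (−0.31 to −0.01). TPX2, the activator of AURKA on the spindle, and HMMR, a spindle assembly factor, fell between the amyloid arrays (−0.49 and −0.39), with changes of −0.32 and −0.16 in the controls. With 1 array left out TPX2 was called in 2 of 6 fits and HMMR in 1 of 6, and HMMR's other probe set had a change of −0.04. NUSAP1 and DLGAP5, microtubule binders of the spindle, had changes from −0.07 to 0.15 in the 2 comparisons without a call.

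Of the 4 members of the central spindle and cytokinesis, 2 fell in the controls (50%, against 7.92% of all genes). Between the amyloid arrays 0 fell (against 8.61%). The difference between the 2 time comparisons was called for none of the 58. PRC1, which bundles the central spindle, and ANLN, the scaffold of the contractile ring, fell in the controls (−0.30, adjusted p = 0.0497, and −0.27, adjusted p = 0.0449). Both calls lay close to the threshold, and with 1 array left out PRC1 was called in 2 of 6 fits and ANLN in 1 of 6. From oligomers to fibrils they had changes of −0.16 and −0.05. ANLN's other probe set, at a level of 9.01, had −0.15 in the controls and −0.45 between the amyloid arrays. ECT2, the exchange factor that activates RHOA at the division plane, had −0.02 and 0.31 (adjusted p = 0.181), the highest change of the members between the amyloid arrays, and its partner RACGAP1 −0.20 and −0.05. ECT2's other probe set, at a level of 5.95, had 0.20 and 0.46.

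In the group of chromosome structure and cohesion, NCAPH, a condensin subunit, had 8.20, 8.19 and 7.97 on the 6 h controls, 7.34, 7.66 and 7.17 on the 24 h controls, 7.87, 8.32 and 7.91 with oligomers and 7.43, 7.71 and 7.34 with fibrils. The 2 times did not overlap, and NCAPH fell in both (−0.73, SE 0.15, adjusted p = 0.00407, and −0.54, SE 0.15, adjusted p = 0.0193). The other condensin subunits did not pass, with changes in the controls of −0.21 for NCAPG, −0.0050 for SMC2 and −0.10 for SMC4. CDCA5, or sororin, which guards cohesion, fell in the controls (−0.54) and not between the amyloid arrays (−0.35). MKI67, the proliferation marker that coats mitotic chromosomes, fell between the amyloid arrays (−0.54, SE 0.15, adjusted p = 0.0207). In the controls it had −0.44 (adjusted p = 0.064), and 1 of its other 3 probe sets had the opposite sign in both. TOP2A, the topoisomerase that untangles sister chromatids, had −0.13 in the controls and −0.34 (adjusted p = 0.0707) between the amyloid arrays. A nearly as bright probe set of TOP2A, at a level of 10.35, had −0.09 and 0.07, and a dim one, at 4.43, had −0.36 and −0.28.

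Of 6 members of mitotic entry 2 fell in the controls (33.3%, against 7.92% of all genes) and 1 between the amyloid arrays (16.7%, against 8.61%). CCNA2, cyclin A2 of S phase and G2, had 9.84, 9.80 and 9.71 against 9.43, 9.62 and 9.35 in the controls and 9.70, 9.92 and 9.77 against 9.50, 9.70 and 9.52 in the amyloid arrays. The times did not overlap, by a narrow margin, and CCNA2 fell in the controls (−0.31, SE 0.09, adjusted p = 0.026) and had −0.22 (adjusted p = 0.0903) between the amyloid arrays. CDC25B, a phosphatase that activates CDK1, fell in both (−0.31 and −0.43). CDK1, the kinase of mitotic entry, had 11.31, 11.52 and 10.83 against 10.99, 10.77 and 10.80 in the controls and 10.79, 11.40 and 11.26 against 10.86, 10.68 and 10.48 in the amyloid arrays. Its times overlapped, since the last 6 h control and the first oligomeric array were as low as 24 h arrays, and it did not pass (−0.36, adjusted p = 0.156, and −0.48, adjusted p = 0.0548). Other probe sets of CDK1, at levels of 10.06 and 9.59, had 0.03 and 0.15 in the controls and −0.27 and −0.01 between the amyloid arrays. A dim one, at 4.60, had −0.70 and 0.34. CCNB1, cyclin B1, did not pass either (−0.16, adjusted p = 0.258, and −0.13, adjusted p = 0.361), and CCNB2 and CDC25C had higher means in the 24 h controls (0.11 and 0.13) without a call.

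Both transcription factors of the wave were lower. MYBL2, the gene of B-MYB, had 8.16, 8.54 and 7.98 on the 6 h controls and 7.31, 7.57 and 7.56 on the 24 h controls, with 7.54, 8.18 and 7.93 for oligomers and 7.39, 7.60 and 7.63 for fibrils. The controls did not overlap and the amyloid arrays did, through the first oligomeric array, and MYBL2 fell in the controls (−0.75, SE 0.16, adjusted p = 0.00591) with −0.34 (adjusted p = 0.155) between the amyloid arrays. FOXM1 had 8.79, 8.93 and 8.53 against 8.11, 8.44 and 7.94 in the controls and 8.40, 8.89 and 8.33 against 8.05, 8.32 and 7.79 in the amyloid arrays. Each pair of groups was apart, by little in the amyloid arrays. FOXM1 fell in the controls (−0.59, SE 0.16, adjusted p = 0.0296) and had an adjusted p of 0.0565 between the amyloid arrays (−0.49).

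**Figure D2:**
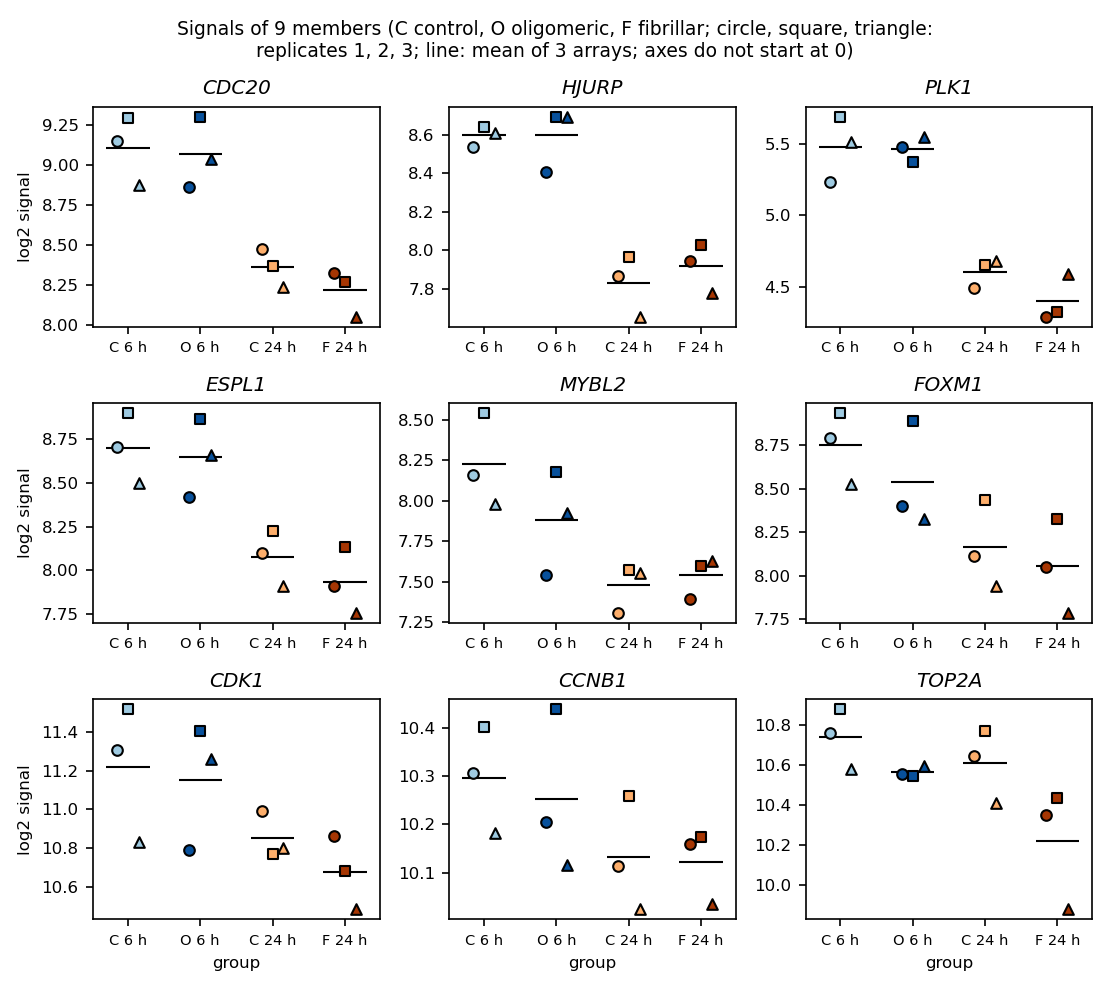
Log2 signals of 9 members on the 12 arrays, by group (C control, O oligomeric, F fibrillar), with a symbol per replicate and a line at the mean of 3. CDC20, HJURP, PLK1 and ESPL1 part completely by time, CDK1 and CCNB1 overlap, and TOP2A has its lowest value, 9.88, on fibrillar replicate 3.

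Over both kinds of array together, all 6 arrays of 24 h lay below all 6 of 6 h for 13 members, against 7.35% of all genes, and above for 0, against 4.11%. They were the 11 that fell in both comparisons together with CCNA2 and MKI67. With 3 against 3, the 24 h controls lay fully below the 6 h controls for 22 members, against 18.9% of all genes, and fibrillar below oligomeric arrays for 20, against 16.9%. No member lay fully above in either, against 13.7% and 14.3% of all genes. Of 41 dimmer probe sets of the members, 27 had a lower mean at 24 h in the controls and 31 between the amyloid arrays. Of the 58 brightest probe sets these were 54 and 53, and of all genes, by their brightest probe sets, 52.6% and 52.2%. The count of calls rested on single arrays. It was 6 without control 6 h replicate 2, 10 without control 24 h replicate 1 and 8 without control 24 h replicate 3, and between the amyloid arrays it was 7 without oligomeric replicate 2 and 8 without fibrillar replicate 3. The share of all genes that fell in each of these fits is not given, so these counts have no background. CDC20, ESPL1 and HJURP kept their call in each of the 6 fits that left out an array in either comparison, and so did KIF20A, MYBL2 and NCAPH in the controls and AURKB, BUB1B, CDC25B and PLK1 between the amyloid arrays. CDC25B was called in 0 of the 6 fits in the controls, and CCNA2, FOXM1 and SPC24 there and KIF15 between the amyloid arrays in 2 of 6.

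Among other measures of the arrays, ribosomal RNA signal parted by time as well. Signal from the 5′ end of 18S ribosomal RNA read 9.31 to 10.7 at 6 h and 11.4 to 11.9 at 24 h. The 3′ less 5′ difference of ACTB, a measure of RNA integrity, ranged from 2.61 to 3.25 at 6 h and from 2.34 to 3.06 at 24 h, and that of GAPDH from 0.66 to 0.83 and from 0.47 to 0.81. These ranges overlap between the times. The mean ACTB difference was 2.97 on the 6 h and 2.53 on the 24 h controls, 2.76 on oligomeric and 2.77 on fibrillar arrays. The part of these measures in the lower mitotic signals was not tested. The summed linear signal of the 6 mesenchymal markers ranged from 2978 to 3594 on the 6 h controls, 3110 to 3829 on oligomeric, 3274 to 4191 on 24 h control and 3222 to 3812 on fibrillar arrays, and its part was not tested either. Of those 6 markers 1, DCN, rose in the controls (16.7%, against 3.76% of all genes, from 8.57 to 9.32) and 0 between the amyloid arrays (against 6.5%), by the test over all genes. Of 12 sympathetic neuroblastoma markers tested, 4 fell in the controls (33.3%, against 7.92% of all genes and 31% of the members). There 1 rose (8.33%, against 3.76% of all genes). Between the amyloid arrays 3 fell (25%, against 8.61% of all genes and 25.9% of the members) and 2 rose (16.7%, against 6.5% of all genes). The part of these markers was not tested. Centring each array on its median moved the median of all genes in the control comparison to −0.15 and that of the members to −0.37.

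Further mitotic genes outside the 58 were read from 6 lists. Of 118 tested, 21 fell (17.8%, against 7.92% of all genes) and 1 rose (0.847%, against 3.76%) in the controls. Between the amyloid arrays 28 fell (23.7%, against 8.61%) and 7 rose (5.93%, against 6.5%), with median changes of −0.14 and −0.11. Among kinetochore genes 6 of 27 (22.2%) and 7 of 27 (25.9%) fell, against 7.92% and 8.61% of all genes. SPDL1, which brings dynein to kinetochores, changed by −0.60 (adjusted p = 0.0021) in the controls and −0.45 between the amyloid arrays, and PMF1, a MIS12 complex subunit, by −0.67 and −0.73. MIS18A, which prepares centromeres for CENPA, changed by −0.39 and −0.49, while CENPH rose between the amyloid arrays (0.42). Among spindle and cytokinesis genes 6 of 22 (27.3%) and 7 of 22 (31.8%) fell, against the same 7.92% and 8.61%. They were led by TACC3, a spindle protein that AURKA phosphorylates (−0.79 and −0.68), CKAP5, its microtubule polymerase partner (−0.37 and −0.51), and KIFC1, a kinesin that clusters spindle poles (−1.55 between the amyloid arrays). The importin KPNA2 rose there (0.29).

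Of 18 further entry kinases and phosphatases 3 fell in the controls (16.7%, against 7.92% of all genes). Between the amyloid arrays 4 fell (22.2%, against 8.61%). ENSA, an inhibitor of the phosphatase PP2A, changed by −0.37 and −0.36, WEE1, which restrains CDK1, by −0.37 in the controls, and CDC25A by −0.69 between the amyloid arrays. Of 16 genes of the anaphase-promoting complex 1 fell in the controls (6.25%, against 7.92% of all genes) and 3 between the amyloid arrays (18.8%, against 8.61%), among them UBE2S, the enzyme that lengthens its ubiquitin chains (−0.61 and −0.65), and ANAPC5 (−0.24 between the amyloid arrays). Of 14 cohesin and condensin genes 2 fell (14.3%, against 7.92% of all genes) and 0 rose (against 3.76%) in the controls. Between the amyloid arrays 3 fell (21.4%, against 8.61%) and 2 rose (14.3%, against 6.5%). NCAPD3 (−0.56 and −0.53) and SMC1A (−0.29 and −0.30) fell in both comparisons, NCAPD2 fell between the amyloid arrays (−0.76), and RAD21 (0.41) and PDS5A (0.34) rose there. Of the 21 genes of the DREAM and B-MYB complexes and the E2F factors, 3 fell in the controls (14.3%, against 7.92% of all genes). There 1 rose (4.76%, against 3.76%). Between the amyloid arrays 4 fell (19%, against 8.61%) and 3 rose (14.3%, against 6.5%). The NF-Y subunit NFYC (−0.47 and −0.50) and the E2F partner TFDP1 (−0.23 and −0.28) fell in both, as did E2F7 in the controls (−0.43), while TFDP2 rose (0.44 and 0.41) and RBL2, the pocket protein of the repressive form of DREAM, rose between the amyloid arrays (0.70).

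S phase genes were lower at 24 h too. Of 44 tested, 9 fell (20.5%, against 7.92% of all genes) and 1 rose (2.27%, against 3.76%) in the controls. Between the amyloid arrays 10 fell (22.7%, against 8.61%) and 1 rose (2.27%, against 6.5%), with median changes of −0.21 and −0.20. The replicative helicase led them, with changes of −1.29 and −1.15 for MCM5 and −0.49 and −0.63 for MCM7. MCM3 changed by −0.54 and −0.71. GINS4, of the same helicase, rose in the controls (1.37, at a level of 5.50), and CDT1, which helps to load it, rose between the amyloid arrays (0.52). The difference between mitosis and S phase genes was not tested.

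The members also moved together between replicates of a group. The mean deviation of the 58 from their 12-array means was 0.16, 0.28 and 0.04 on the 6 h controls, −0.01, 0.27 and 0.04 on the oligomeric, −0.11, 0.02 and −0.22 on the 24 h control and −0.18, −0.03 and −0.26 on the fibrillar arrays. The array numbered 2 was highest in each of the 4 groups. It held the highest value of its group in 51 members with oligomers, 44 in the 6 h controls, 45 with fibrils and 49 in the 24 h controls, against 29% to 34.7% of all genes. For 28 members (48.3%) the array numbered 2 was highest in all 4 groups, as it was for 3.08% of all genes. The S phase genes and all 11 role groups of members showed the same order, with the array numbered 2 highest in 4 of 4 groups, and the DREAM and E2F list in 1 of 4. The sum of the mesenchymal markers was lowest on the array numbered 2 in every group, at 2978, 3110, 3222 and 3274, and its relation to the mitotic genes was not tested. The labels do not say whether a number marks a shared culture or day. Without the 4 arrays numbered 2, a setting chosen after the data were seen, 12 members fell in the controls, 11 of them among the 18, and 9 between the amyloid arrays, 8 of them among the 15. Shares of all genes that fell in that fit are not given beside these counts.

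**Figure D3:**
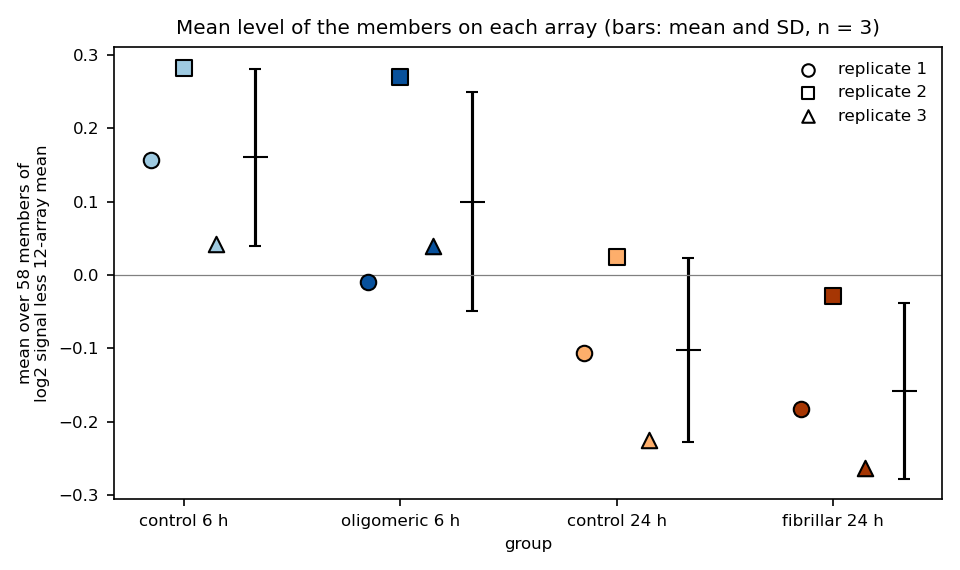
Mean over the 58 members of the log2 signal less each gene's 12-array mean, per array, with the mean and SD of each group of 3 beside its points. The square of replicate 2 is highest in each group, from 0.28 on the 6 h controls to −0.03 on the fibrillar arrays, and the 24 h groups lie below the 6 h groups by about the range within a group.

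**Figure D4:**
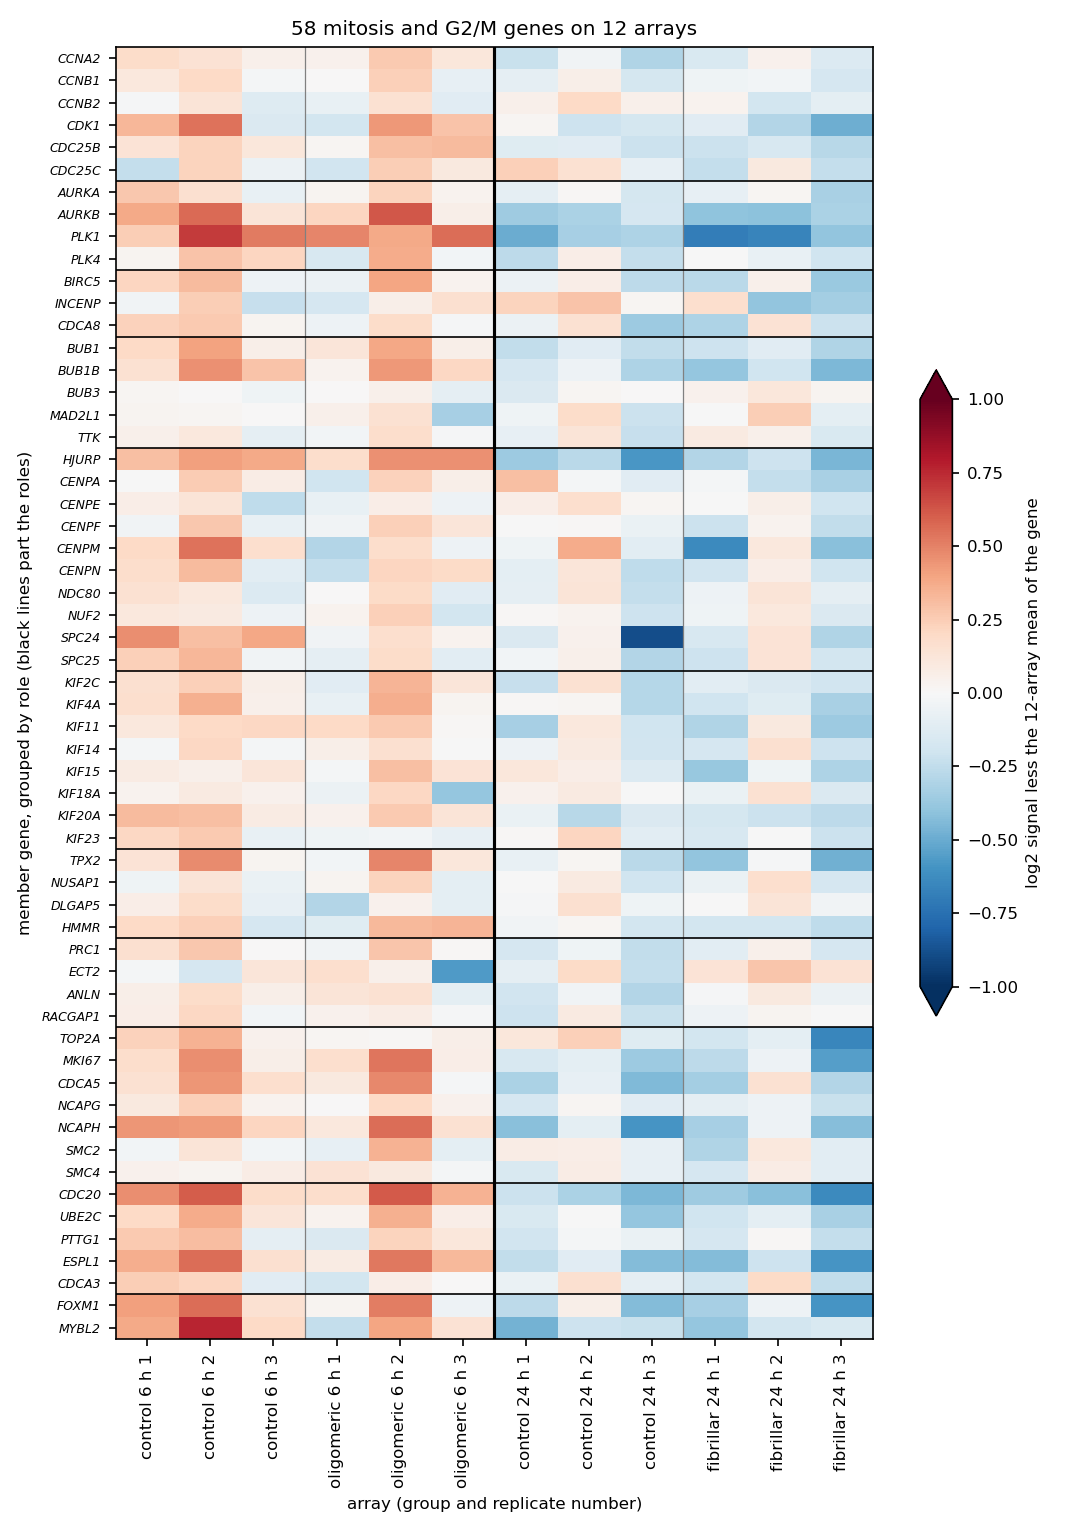
Each row is 1 of the 58 members, grouped by role, and each column 1 of the 12 arrays, coloured by the log2 signal less that gene's 12-array mean. Most 6 h columns are mostly red and most 24 h columns mostly blue, and the columns numbered 2 are the reddest of their groups. Members above their 12-array mean numbered 30 of 58 on oligomeric replicate 1 and on fibrillar replicate 2, and 38 on 24 h control replicate 2. CDC20, HJURP, PLK1 and ESPL1 show the sharpest edge between the times.

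The comparison of oligomeric Aβ with its 6 h control shows what that preparation changed in the mitotic genes. None of the 58 was called with limma (0% of all genes were), and 1 had an unadjusted p under 0.05. The median change was −0.04, against −0.0046 over all genes, and 43 of the 58 had the lower mean, against 51.8% of all genes. All changes but that of MYBL2 were within 2 standard errors of 0, as their plot shows. MYBL2 had −0.34 (SE 0.16, adjusted p = 1), with the values given above overlapping between the groups. SPC24 was the only member whose oligomeric arrays, at 6.47, 6.67 and 6.53, all lay below the controls, at 6.96, 6.80 and 6.89 (−0.33, SE 0.20). That is 1 of 58, against 3.76% of all genes, and 0 lay fully above, against 3.6%. The smallest p-values behind MYBL2 belonged to DLGAP5 (−0.17), KIF23 (−0.18) and CENPM (−0.36), and on the higher side to HMMR (0.09), CENPF (0.05), CDC25B (0.05) and KIF15 (0.06). The direction of the median depended on the arrays. It was −0.15 without oligomeric replicate 2 and 0.01 without control 6 h replicate 2.

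The comparison of fibrillar Aβ with its 24 h control shows the same for the other preparation. Of all genes 94 rose (0.798%) and 46 fell (0.391%), 1.19% together, and none of the 58 was among them with limma, with 3 at an unadjusted p under 0.05. The median change was −0.04, against −0.00051 over all genes, and 40 of the 58 were lower, against 50.1%. It was 0.03 after centring each array on its median, 0.01 without fibrillar replicate 3 and 0.02 without control 24 h replicate 2, so it has no settled sign. TOP2A, read from its brightest probe set, had the lowest adjusted p. It had 10.65, 10.77 and 10.41 on the 24 h controls and 10.35, 10.44 and 9.88 with fibrils, which overlap, and the change was −0.39 (SE 0.12, adjusted p = 0.157). From oligomeric to fibrillar arrays this probe set had −0.34, and the nearly as bright one of TOP2A had 0.07. KIF15 had −0.26 (SE 0.11, adjusted p = 0.28), and behind it came CCNB2 (−0.18) and CENPM (−0.39).

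On the higher side stood the central spindle. All 4 of its members had the higher mean with fibrils, ANLN by 0.18 (SE 0.08, adjusted p = 0.337), ECT2 by 0.24 (SE 0.15), RACGAP1 by 0.10 and PRC1 by 0.08, with overlapping groups. With oligomers all 4 had the lower mean, from −0.09 to −0.04. No other role group had all of its members higher with fibrils. The pattern was not tested and rests on 1 probe set per gene. All 8 kinesins, all 5 genes of mitotic exit and all 3 chromosomal passenger partners had the lower mean, with changes of −0.26 to −0.02 for the kinesins. BUB3 (0.10) had its fibrillar arrays fully above the controls, 1 of 58 against 10.9% of all genes. CCNB2, at 10.17, 10.32 and 10.17 in the controls and 10.15, 9.93 and 10.02 with fibrils, had them fully below, 1 of 58 against 8.73%.

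**Figure D5:**
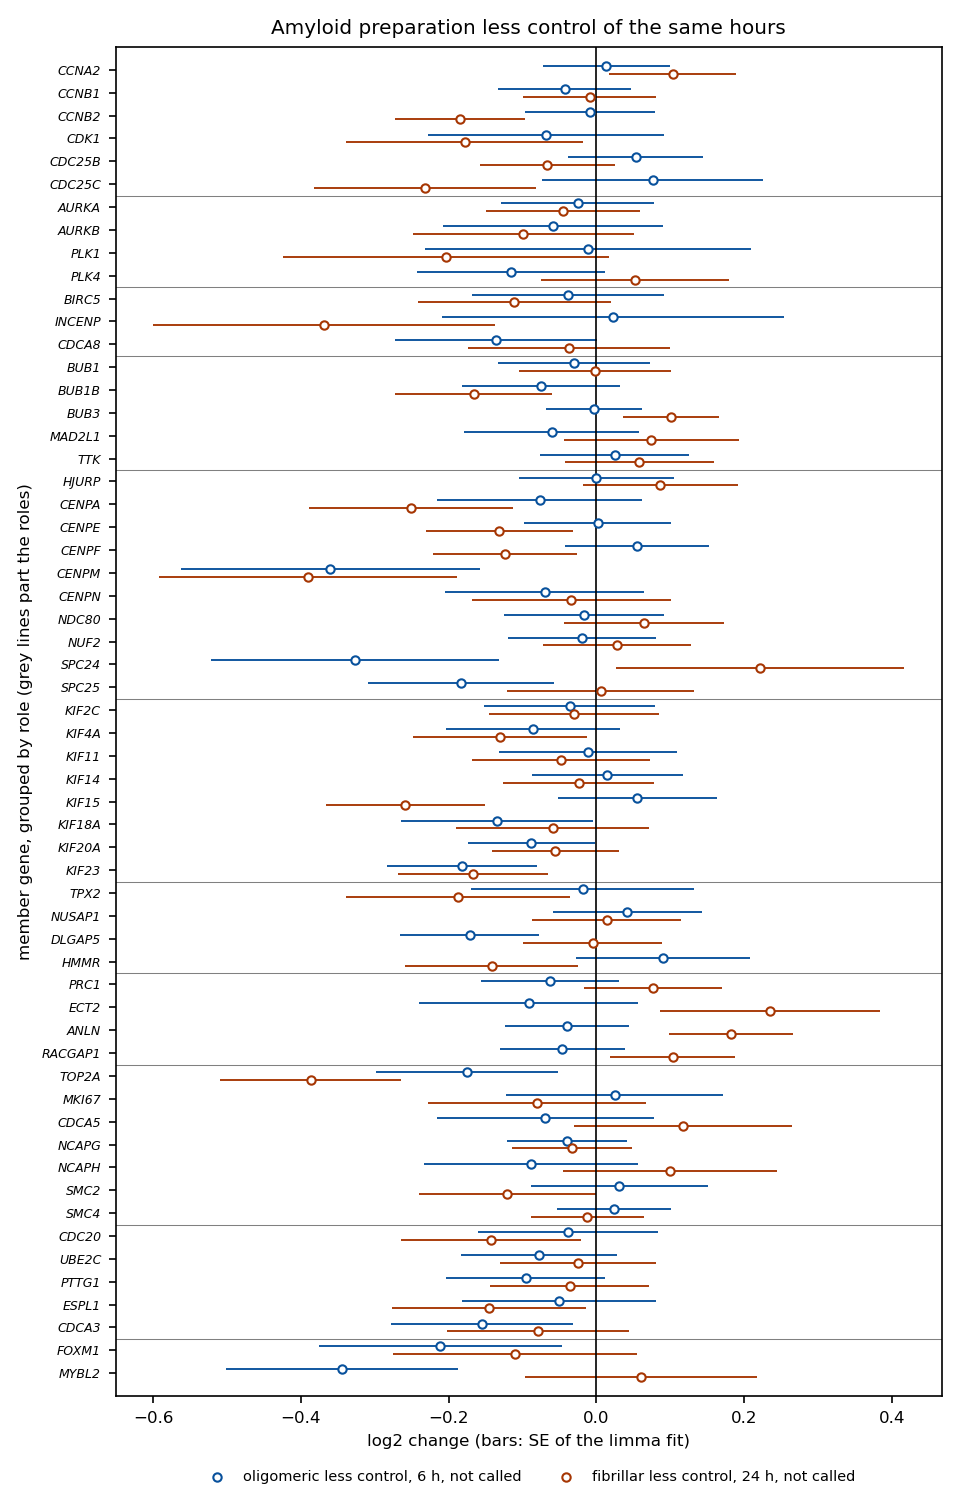
Log2 change of each of the 58 members with the oligomeric preparation at 6 h (blue) and the fibrillar preparation at 24 h (red), each less the control of the same hours, with bars for the standard error of the limma fit. No member was called, and the points scatter around 0 from −0.39 to 0.24.

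CDK1 had changes of −0.07 (SE 0.16) with oligomers and −0.18 (SE 0.16) with fibrils, CCNB1 −0.04 and −0.0092, CCNA2 0.01 and 0.10, and CDC20 −0.04 and −0.14. PLK1 had −0.01 (SE 0.22) and −0.20 (SE 0.22), AURKB −0.06 and −0.10, and AURKA −0.03 and −0.05. For MKI67 the changes were 0.02 and −0.08, and for FOXM1 −0.21 and −0.11. The standard errors of these genes, 0.09 to 0.22, mean that a change of that size could not be detected with 3 arrays a group. Set against each other, the 2 responses gave 0 calls among the 58, against 0.0425% of all genes. The difference, fibrillar less oligomeric, was below 0 for 27 members, against 48.2% of all genes, with a median of 0.01 (0.15 after centring, where the median of all genes was 0.15 too). KIF15 (−0.31, SE 0.15), SPC24 (0.55, SE 0.28), ANLN (0.22) and MYBL2 (0.41) had the smallest p-values, with adjusted p-values from 0.6 to 0.655. ANLN's other probe set had −0.45 between the amyloid arrays and −0.15 in the controls, so its difference has the opposite sign.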

How the data were processed

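Total RNA of 12 samples was measured on Affymetrix 3′ expression arrays, 3 per group. The deposited values are log2 signals, made by the authors with MAS5 per the submitters' processing notes, and array medians were 3.89 to 4.12. They were used without further scaling. MAS5 scales each array on its own, so shifts between arrays can remain. Each gene took its brightest probe set with a single symbol, and genes below the median probe set mean (3.78) were left out. limma 3.58.1 in R 4.3.3 fitted group means over all 12 arrays with a trended prior variance. P-values were Benjamini-Hochberg adjusted over 11774 genes, with a threshold of 0.05, after a test on simulated data. Plots used Python 3.11.15, pandas 2.3.3 and matplotlib 3.10.9. The members and lists were chosen with earlier results of these data known. Named were all called members, in each direction those with the smallest p to make up 4 where fewer were called, 11 fixed members (CCNA2, CCNB1, CDK1, PLK1, AURKA, AURKB, CDC20, TOP2A, MKI67, FOXM1 and MYBL2), and up to 2 called genes per direction of each other list. Further genes were named to complete a role or a pair of values. Alternatives were quantile normalization, median centring, no filter, the mean of probe sets, a constant prior variance, a replicate block, the 2 groups alone and leaving out arrays. An exact permutation test of 3 against 3 cannot go below 0.1 and was not used.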

Additional observations from a re-analysis of the deposited data

How the results depend on the processing

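The number of arrays and the brightness of each probe set limit the precision, and no setting turned the direction of a called member. In the controls over time the members' median was −0.37 after median centring and −0.31 to −0.16 with 1 array left out. The members called there numbered 10 with a constant prior variance and 6 to 20 with 1 array left out. The genes called, 1375 in all, were 573 without the 4 arrays numbered 2 and 719 to 1106 with 1 array left out. Between the amyloid arrays the members called were 8 with a constant prior variance, 9 without the 4 arrays numbered 2 and 7 to 21 with 1 array left out, and the 1779 genes called were 979 without the 4 arrays numbered 2 and 992 to 1892 with 1 array left out. With fibrils against control the 140 genes called were 62 when probe sets were averaged, 76 without a filter, 7 with a constant prior variance, 35 with the 2 groups alone and 14 to 185 with 1 array left out. That count was 14, 64 and 28 without control 24 h replicates 1, 2 and 3 and 87, 185 and 21 without fibrillar replicates 1, 2 and 3. For the difference of the responses the 5 genes called were 3 after quantile normalization, 13 after median centring, 3 with the mean of probe sets, 0 with a constant prior variance, 22 without the 4 arrays numbered 2 and 0 to 64 with 1 array left out. The members' median there was 0.15 after median centring and −0.05 to 0.09 with 1 array left out. The replicate numbers were not taken as a pairing. Over all genes same-numbered arrays deviated with correlations of −0.023 to 0.089 between groups of the same hours and −0.027 to 0.078 between groups of different hours. Over the members alone these ran from −0.352 to 0.54 and from −0.302 to 0.255. A correlation over genes does not register a shift that the members of an array share, as on the arrays numbered 2. It therefore cannot decide whether the numbers mark pairs for these genes. With the replicate number as a block within each of the hours, which takes the spread between numbers out of the error, 21 members were called in the controls over time, 23 between the amyloid arrays and 0 in the treatment comparisons, 91 genes with fibrils and 0 genes for the difference of the responses. For the member counts of this section the share of all genes that fell in the same fit is not given, so they have no background. The causes of the shifts between settings were not tested.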
